A study of Mus musculus with 6 samples.

Results

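The genes described here are the secreted ligands of the Wnt family, their receptors, the secreted proteins that block or strengthen them, and a few of the factors that carry the signal inside the cell. The list held 53 genes, chosen by name. A gene counted as measured when a row of the value table carried its symbol alone, and each of the 47 genes found in this way had 1 such row, out of 14860 genes with a row of their own. The remaining genes were Fzd9, Dkk1, Lgr4, Celsr2, Prickle1 and Prickle2. The samples came from mouse embryos of day 12 (E12). Columns of the lumbar cord were dissected apart, and motor neurons were then sorted from each by fluorescence, so the split into columns rests on the dissection. All embryos carried HB9::GFP, a transgene (line mHB9-Gfp1b) in which the promoter of the motor neuron gene Hb9 drives green fluorescent protein, and no sample received a treatment. There were 3 arrays of medial motor neurons, which serve the muscles along the spine, and 3 arrays of lateral motor neurons, which serve the limb. The labels call them biological replicates, and the number of embryos behind each sample is not given in the sources used here, so p-values measure only the spread between these samples.

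Wnt proteins are secreted, lipid-modified signals that bind Frizzled receptors on nearby cells. With the co-receptors Lrp5 and Lrp6 they stabilise beta-catenin, which switches on target genes together with Tcf and Lef factors, and with Ror, Ryk, Vangl and Celsr proteins they act on cell polarity and axon growth without beta-catenin. In the developing cord Wnts pattern progenitors, guide axons along the body axis and, in the mouse, favour the formation of medial column motor neurons through Wnt4, Wnt5a and Wnt5b. The comparison of medial with lateral neurons asked which transcripts, Wnt genes among them, differ between the columns.

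The arrays carried 23332 rows on a log2 scale, with medians between 6.73 and 6.84. Markers of the columns followed the labels, since Lhx3, Lhx4 and Mecom were higher in the medial samples by 2.55 to 3.28 on the log2 scale, and Foxp1, Aldh1a2 and Lhx1 were lower there by log2 differences of −2.58 to −4.87. All 8 motor neuron markers were measured. An adjusted p of 0.05 in limma was passed by 5 of them, or 62.5% against 3.07% of all rows. The groups were apart in all 8, against 19.3% of all rows. Mnx1, the gene called Hb9 whose promoter drives the sorted label, and Isl2 were higher in the medial samples by 1.42 and 1.57. Isl1, Prph and Ret were lower there, with log2 differences of −0.64, −1.66 and −1.24. The table gives no detection calls. As a rough guide to background, 17 genes of muscle, liver, testis, retina and other organs, among them Ckm, Cyp2e1, Prm1 and Pde6a, had group means from 3.92 to 7.71, with a median of 5.46 and a 90th percentile of 6.77. In 37 of the 47 Wnt genes both group means were at or under 7.71, all 16 ligands included, and in 22 both were at or under 6.77. Rows differ in their probes, so a level in this range can be background or a low true level, and a fold measured from it can understate the difference.

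Of the 47 Wnt genes, 3 were higher and 1 was lower in the medial samples at an adjusted p of 0.05 in limma, the test run over all rows. Ror1, Sfrp2 and Wnt7b were the 3 higher genes, and Wnt3 was the lower gene. These 4 genes made up 8.51% of the measured members, while 3.07% of all rows passed in either direction, 1.13% as higher and 1.94% as lower. The median log2 difference was 0.02 for the members and 0.02 for all rows. Differences smaller than 0.2 on the log2 scale were found in 63.8% of the members and in 71.6% of all rows. In 13 of the 47 genes the 2 groups were fully apart, or 27.7%, against 19.3% of all rows. The medial values were the higher ones in 8 of them and the lower ones in 5, beside 10.2% and 9.15% of all rows. Counted by gene rather than by row, 3.8% of the 14860 genes passed, 22.2% did not overlap and 78% differed by less than 0.2.

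**Figure D1:**
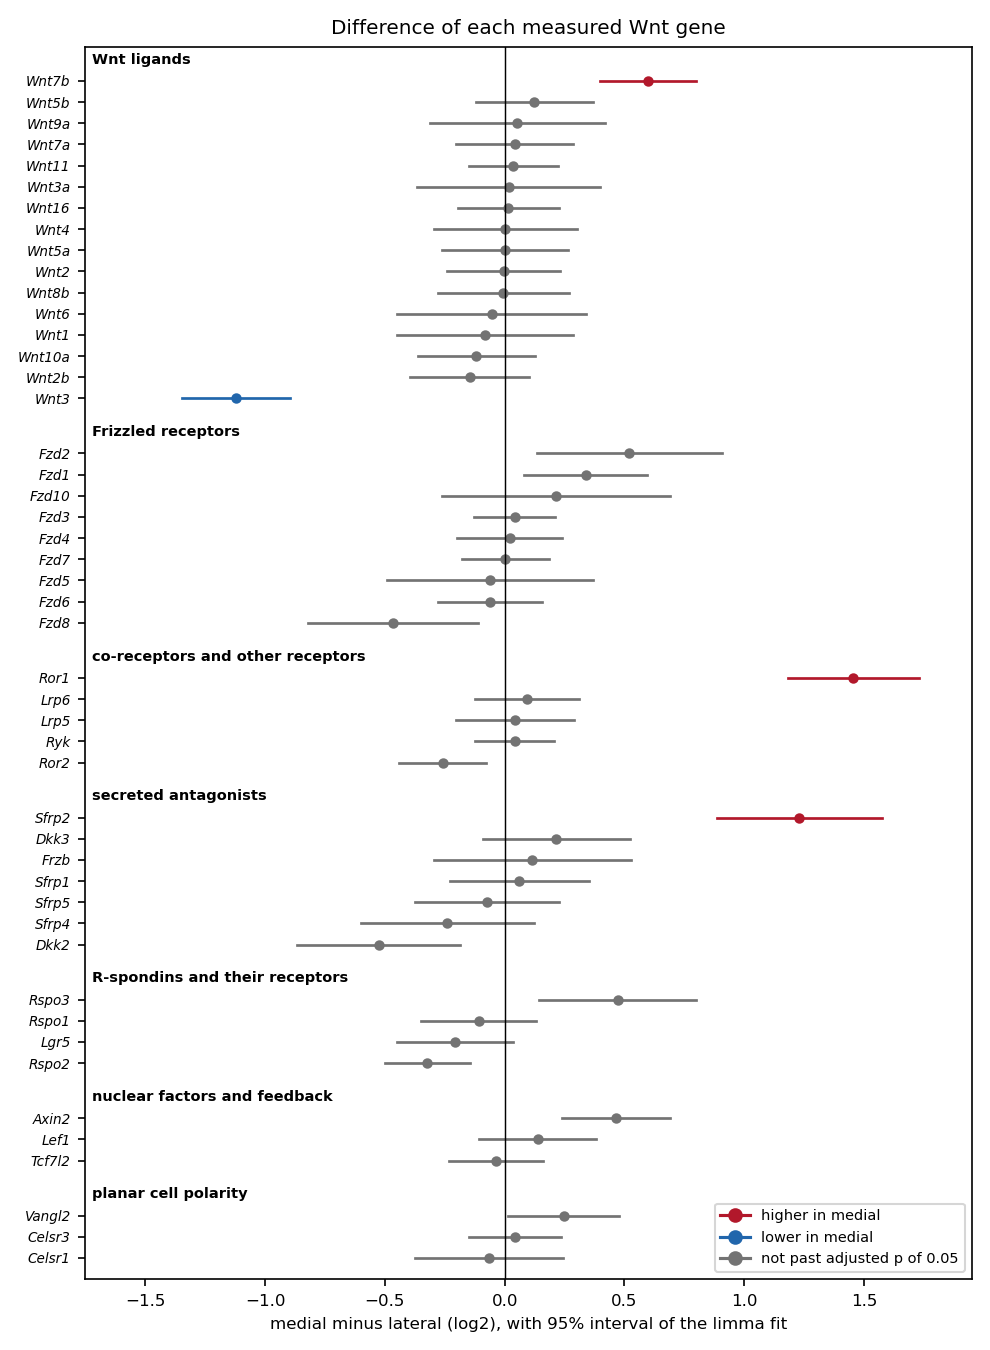
The horizontal axis gives the medial minus lateral difference (log2) of each of the 47 measured Wnt genes, ordered within 7 roles, with points for the estimate and lines for the 95% interval of the limma fit on 3 samples per group. Ror1, Sfrp2 and Wnt7b lie to the right in red, Wnt3 lies to the left in blue, and the other 43 genes did not pass.

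To show promoters of the called genes, which are Ror1, Sfrp2, Wnt3 and Wnt7b, the 250 bases before the annotated start are printed for the first 3 of them, with Axin2, a standard beta-catenin target, for comparison. The sequences are RefSeq windows of build GRCm38.p6, all on the plus strand, at chr4:100095541-100095790, chr3:83766071-83766320, chr11:103773925-103774174 and chr11:108920099-108920348. The windows were searched on both strands for the Tcf/Lef core in the forms CTTTGA and CTTTGT, which share their first 5 letters and cannot match at the same place, and for the homeodomain core TAATTA, which reads the same on both strands. Capitals mark a match.
Ror1: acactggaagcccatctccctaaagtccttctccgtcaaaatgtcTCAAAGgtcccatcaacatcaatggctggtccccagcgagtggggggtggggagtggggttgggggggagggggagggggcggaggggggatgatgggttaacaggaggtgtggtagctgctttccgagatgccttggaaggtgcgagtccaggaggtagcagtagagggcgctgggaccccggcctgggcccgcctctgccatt
Sfrp2: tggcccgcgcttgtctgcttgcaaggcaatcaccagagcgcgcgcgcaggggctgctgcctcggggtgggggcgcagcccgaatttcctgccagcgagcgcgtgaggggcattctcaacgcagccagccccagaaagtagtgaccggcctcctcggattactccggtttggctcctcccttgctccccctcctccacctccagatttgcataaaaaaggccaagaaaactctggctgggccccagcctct
Wnt3: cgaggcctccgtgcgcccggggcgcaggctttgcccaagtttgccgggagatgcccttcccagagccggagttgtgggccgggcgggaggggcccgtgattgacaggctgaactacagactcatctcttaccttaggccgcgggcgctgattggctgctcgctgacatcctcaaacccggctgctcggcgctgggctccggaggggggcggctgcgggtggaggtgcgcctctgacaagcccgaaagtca
Axin2: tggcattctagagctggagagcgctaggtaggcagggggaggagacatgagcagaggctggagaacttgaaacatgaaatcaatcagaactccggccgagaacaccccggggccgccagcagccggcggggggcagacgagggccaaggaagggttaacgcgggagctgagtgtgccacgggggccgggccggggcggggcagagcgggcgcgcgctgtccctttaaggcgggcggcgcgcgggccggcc
All 4 windows are rich in G and C, at 62.4% for Ror1, 63.6% for Sfrp2, 68.0% for Wnt3 and 69.2% for Axin2. The only match among them is a CTTTGA on the minus strand of Ror1, at positions −205 to −200 from the start. Windows were found for 37 of the 53 listed genes, measured or not, and 27.1% of their 48 windows held the Tcf/Lef core, against 27.6% of all 32851 windows. TAATTA was found in 2.1% of them and in 4.8% of all windows. These letters describe the windows and say nothing of which factors bind there.

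Among the ligands, Wnt3 and Wnt7b differed between the columns, in opposite directions. Wnt3, a ligand that acts mainly through beta-catenin and that motor neurons are known to make in the mouse, stood at 6.02, 5.97 and 5.98 (log2) in medial replicates 1, 2 and 3. In lateral replicates 1, 2 and 3 it stood at 7.23, 6.95 and 7.15. The 3 medial values lay within a narrow band and every lateral value was above them. The medial minus lateral difference was −1.12 ± 0.09 (log2, SE, 3 samples per group), a 2.17-fold higher level in the lateral samples (limma adjusted p = 0.00244). Leaving out any 1 of the 6 samples kept the call, with differences from −1.20 to −1.06. Both group means of Wnt3 lie within the range of the background genes, the medial mean of 5.99 near the middle of that range.

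Wnt7b, a ligand known for roles in dendrite growth and blood vessel formation, stood at 7.26, 7.25 and 7.11 in medial replicates 1, 2 and 3. The lateral values were 6.56, 6.57 and 6.69. The groups did not overlap, and the difference was 0.60 ± 0.08 (log2, SE), or 1.51-fold (limma adjusted p = 0.0156). This call was lost without medial replicate 1 (adjusted p = 0.0758), medial replicate 2 (0.0716), lateral replicate 1 (0.0562) or lateral replicate 2 (0.0709), while the difference stayed between 0.57 and 0.65 in all 6 such fits. It was also lost with the replicate number as a block (0.0752). Both group means lay under 7.71.

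The other 14 ligands had log2 differences between −0.15 and 0.12, and none passed in limma, where their smallest adjusted p was 0.641. In each of the 14 the 95% interval held 0, and over all of them the intervals reached from −0.45 to 0.42. This set includes the 3 ligands linked to medial column formation, with differences of 0.00 ± 0.12 for Wnt4, 0.00 ± 0.11 for Wnt5a and 0.12 ± 0.10 for Wnt5b (log2, SE). The 95% intervals reached up to 0.30 for Wnt4, 0.27 for Wnt5a and 0.37 for Wnt5b. All 3 genes lie within the range of the background genes, so these interval ends do not bound the true difference. Wnt5b, in this group, stood at 7.08, 7.27 and 7.17 in the medial and 6.95, 6.98 and 7.21 in the lateral samples, so the groups overlapped.

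Several Wnt genes are direct neighbours on the chromosome, in arrangements known from many animals. Wnt3 lies next to Wnt9b on chromosome 11, and the difference of Wnt9b was 0.13 beside −1.12 for Wnt3. Wnt9b is not among the 53 listed genes and did not pass. In the other neighbouring pairs no member passed, with 0.02 and 0.05 for Wnt3a and Wnt9a on chromosome 11, −0.05 and −0.12 for Wnt6 and Wnt10a on chromosome 1, and −0.28 and −0.08 for Wnt10b and Wnt1 on chromosome 15.

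None of the 9 measured Frizzled receptors passed in limma. An unadjusted p under 0.05 was found in 3 of the 9, beside 3130 of all 23332 rows. Fzd2 stood at 6.71, 6.18 and 6.57 in medial replicates 1, 2 and 3 and at 6.13, 5.79 and 5.97 in the lateral ones, a difference of 0.52 ± 0.16 (log2, SE, limma adjusted p = 0.211). Both group means of Fzd2 lay under 6.77. Fzd1 stood at 8.40, 8.23 and 8.28 in the medial and 8.08, 7.78 and 8.04 in the lateral samples, a difference of 0.34 ± 0.11 (adjusted p = 0.220). In Fzd2 and Fzd1 every medial value was above every lateral value, by a narrow gap. Fzd8 had a difference of the opposite sign, at 6.51, 6.50 and 6.86 in the medial and 7.22, 6.85 and 7.19 in the lateral samples, with groups that overlapped (difference −0.46 ± 0.15, adjusted p = 0.225).

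Fzd3, the Frizzled that works with Celsr3 in axon guidance, had the smallest error of the 9. Its values ran from 10.86 to 10.95 in the medial samples and from 10.84 to 10.87 in the lateral samples, and its difference of 0.04 had a 95% interval from −0.13 to 0.21. Fzd7 had a difference of 0.00 with an interval from −0.18 to 0.18. Fzd4, Fzd5, Fzd6 and Fzd10 differed by 0.02, −0.06, −0.06 and 0.21, and the intervals of these 4 genes held 0. Both group means of Fzd4, Fzd6 and Fzd10 lay under 6.77.

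Ror1 showed the largest difference of any measured Wnt gene. It encodes a receptor tyrosine kinase-like protein that binds Wnt5a and acts outside the beta-catenin route. Its values were 7.84, 7.99 and 8.17 (log2) in medial replicates 1, 2 and 3, and 6.44, 6.52 and 6.68 in the lateral replicates. The lowest medial value was well above the highest lateral one. The difference was 1.45 ± 0.11 (log2, SE, 3 samples per group), or 2.74-fold (limma adjusted p = 0.00189), and it passed whichever of the 6 samples was omitted, with differences from 1.37 to 1.53. Its lateral mean of 6.55 is within the range of the background genes and its medial mean is above it.

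Ror2, the close relative of Ror1 and also a Wnt5a receptor, had a difference of the opposite sign. It stood at 7.96, 8.02 and 7.93 in medial replicates 1, 2 and 3, against lateral values of 8.28, 8.26 and 8.15. The groups did not overlap, but the difference of −0.26 ± 0.08 (log2, SE) did not pass (limma adjusted p = 0.190). The other receptors were nearly level between the columns, though both group means of Lrp5 lay under 6.77, where a fold can understate the difference. Ryk, an atypical kinase that repels axons in response to Wnts, differed by 0.04 with a 95% interval from −0.12 to 0.21, the co-receptor gene Lrp6 by 0.09 (−0.12 to 0.31) and Lrp5 by 0.04 (−0.20 to 0.29).

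**Figure D2:**
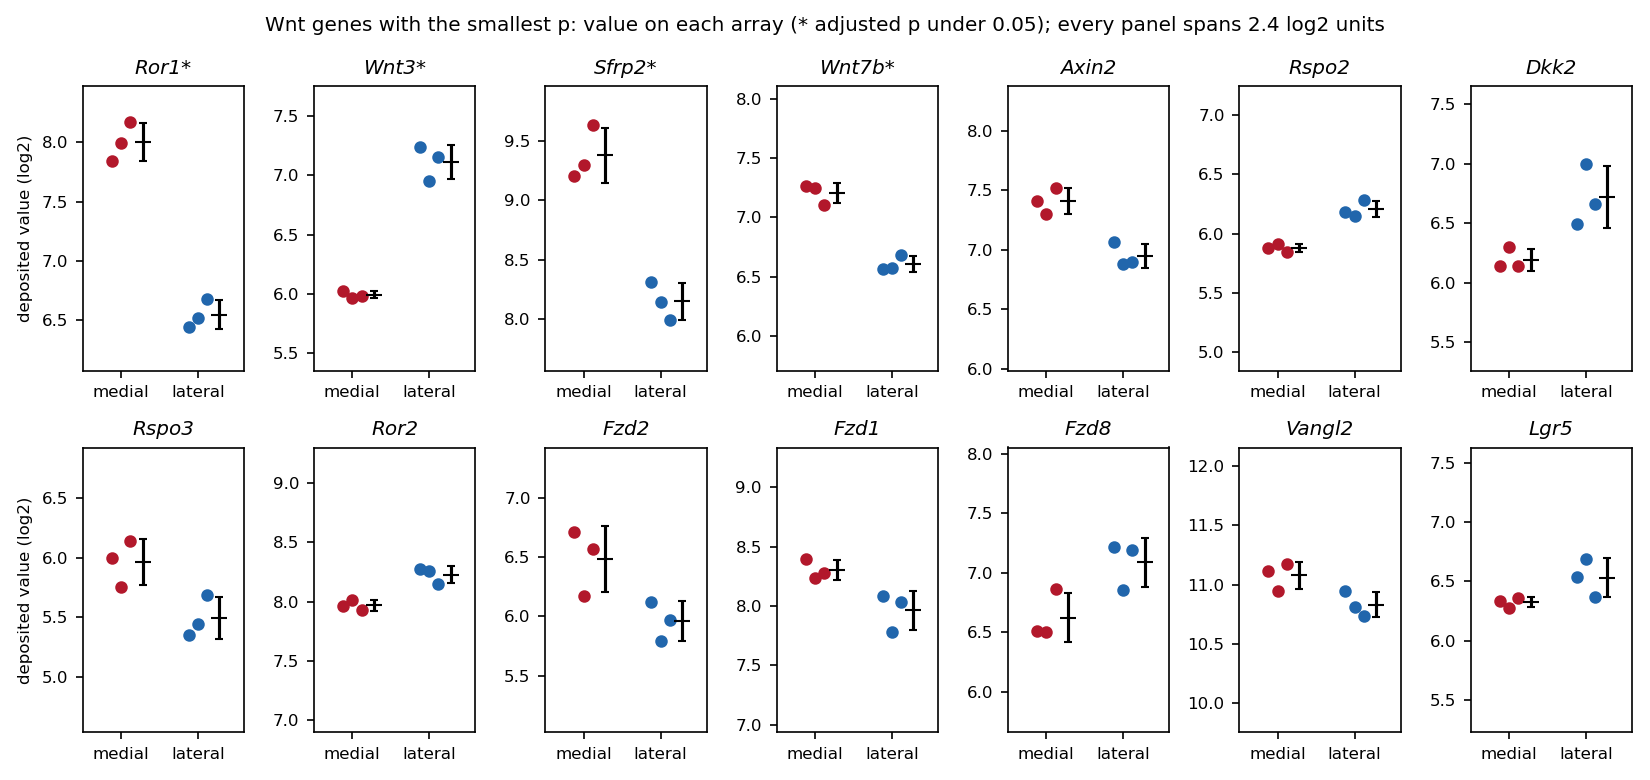
The vertical axes give the deposited values (log2) of the 4 genes that passed, marked by an asterisk, and of the 10 genes with the next smallest p, with 1 point per array and the mean ± SD of 3 arrays beside it. All panels span the same log2 range around their own centre. In the 4 genes that passed the gap between the groups is wider than the range within either. Of the others this also holds for Axin2, Rspo2 and, barely, Ror2, and in Fzd8 the groups overlap.

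Secreted antagonists included the third gene that was higher in the medial samples. Sfrp2, a secreted Frizzled-related protein that binds Wnts outside the cell, stood at 9.20, 9.30 and 9.64 in medial replicates 1, 2 and 3, and at 8.31, 8.14 and 7.99 in the lateral replicates. The groups were far apart, and both group means lay above the highest background gene. The difference was 1.23 ± 0.14 (log2, SE), or 2.35-fold (limma adjusted p = 0.00822), and omitting any 1 sample kept the call, at an adjusted p between 0.0209 and 0.0416 and a difference between 1.10 and 1.32. With the replicate number as a block it did not pass (adjusted p = 0.0578).

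Sfrp2 is also made by progenitor cells and connective tissue in the embryo, so the markers of these cells were examined beside it. Of 10 progenitor genes, 1 was higher in the medial samples, beside 1.13% of all rows called as higher. This was Sox2, at 6.31 ± 0.16 against 5.68 ± 0.12 (log2, SD, n = 3, limma adjusted p = 0.0376). The other 9 did not pass and lay between −0.14 and 0.53. The highest of them was Fabp7, a radial glia gene, at 8.72 against 8.19 with overlapping groups (adjusted p = 0.603), and Nes, Hes5 and Pax6 differed by 0.08, −0.11 and 0.02. The summed level of the list ran from 13.1 to 13.2 (log2) in both groups, but Vim alone made up 86.0% to 89.4% of it, so the sum says little about the other 9. Of 10 mesenchyme and cartilage genes, 1 was higher in the medial samples, again beside 1.13% of all rows. This was Dcn, at 6.59 ± 0.43 against 5.28 ± 0.26 (adjusted p = 0.0423), while Col1a1, Col3a1 and Twist1 differed by −0.08, −0.07 and −0.11. The groups were apart in 4 of the 10, or 40.0%, against 19.3% of all rows. Besides Dcn these were Sox9 (0.23, adjusted p = 0.329), Lum (0.13, 0.631) and Prrx1 (−0.59, 0.208), which did not pass. The summed level of this list ran from 10.2 to 10.4 in the medial and from 10.2 to 10.3 in the lateral samples. Sox2 and Dcn no longer passed whichever sample was omitted, their highest adjusted p being 0.113 and 0.144. The group means of Sox2, Nes, Pax6, Dcn, Col3a1 and Lum all lay under 6.77. The part of these cells in the difference of Sfrp2 was not tested.

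Of the remaining antagonists none passed. Dkk2, which binds Lrp co-receptors, stood at 6.14, 6.30 and 6.14 in the medial and 6.49, 7.002 and 6.66 in the lateral samples. Every lateral value was above the medial ones, and the difference was −0.53 ± 0.14 (log2, SE, limma adjusted p = 0.153). Sfrp1 was nearly level, with values from 9.70 to 10.08 in the medial and from 9.71 to 9.82 in the lateral samples and a difference of 0.06 (95% interval −0.23 to 0.35). Dkk3 differed by 0.22, Frzb by 0.11, Sfrp5 by −0.07 and Sfrp4 by −0.24, each with an interval that held 0. The table also holds a row that lists Dkk1 together with 2 other symbols and cannot be assigned to any of the 3. It stood at 6.68, 6.98 and 7.09 in the medial and 9.44, 10.10 and 9.30 in the lateral samples, a difference of −2.70 ± 0.23 (log2, SE, adjusted p = 0.00243), and is not counted with the members.

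The R-spondins, secreted proteins that strengthen Wnt signals through Lgr receptors, gave no call among the 3 ligands and Lgr5. Rspo2 had narrow groups that did not overlap, at 5.88, 5.92 and 5.85 in the medial and 6.18, 6.15 and 6.28 in the lateral samples. Its difference was −0.32 ± 0.07 (log2, SE, limma adjusted p = 0.0934). Rspo3 had a difference of the opposite sign, at 5.99, 5.76 and 6.14 in the medial and 5.35, 5.44 and 5.69 in the lateral samples, a difference of 0.47 ± 0.14 (adjusted p = 0.183), with a narrow gap between the groups. Lgr5, a receptor for R-spondins, stood at 6.33, 6.28 and 6.36 in the medial and 6.53, 6.69 and 6.37 in the lateral samples, a difference of −0.21 ± 0.10 (adjusted p = 0.456) in which the groups were barely apart. Rspo1 differed by −0.11. The group means of Rspo2, Rspo3 and Lgr5 were all under 6.77.

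Axin2, a feedback inhibitor that beta-catenin switches on and whose level is often read as a measure of pathway activity, came close to the threshold. It stood at 7.41, 7.31 and 7.52 in medial replicates 1, 2 and 3 and at 7.06, 6.88 and 6.90 in the lateral replicates. Every medial value was above every lateral value, and the difference was 0.46 ± 0.09 (log2, SE), or 1.38-fold. It did not pass in limma (adjusted p = 0.0615). Among 7 alternatives that kept all samples it passed in 5 (lowest adjusted p 0.0175, highest 0.113). With any 1 sample omitted it did not pass (lowest 0.0753, highest 0.218). The nuclear factor genes Lef1 and Tcf7l2, which act with beta-catenin on target genes, differed by 0.14 (95% interval −0.11 to 0.38) and −0.03 (−0.23 to 0.16), and both lay under 6.77.

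Of the planar cell polarity genes, Vangl2, Celsr1 and Celsr3 were measured, and none passed. Vangl2, a membrane protein at the core of this system that also acts in growth cones, stood at 11.11, 10.95 and 11.17 in the medial and 10.94, 10.81 and 10.74 in the lateral samples. The groups were barely apart, and the difference was 0.25 ± 0.10 (log2, SE, limma adjusted p = 0.336). Celsr3, an atypical cadherin needed for axon tracts, differed by 0.04 with a 95% interval from −0.15 to 0.23. Celsr1 differed by −0.06 (−0.37 to 0.24).

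Related genes were then set against each other within each array, which removes any shift common to a whole array. The 5 pairs were chosen after their values were seen. Ror1 minus Ror2 was 0.03 ± 0.18 in the medial and −1.68 ± 0.19 in the lateral samples (log2, SD, n = 3), a change of 1.71. Wnt3 minus Wnt3a was −0.96 ± 0.18 and 0.18 ± 0.34, a change of −1.14. In both pairs most of this lies in Ror1 and Wnt3, since the partners Ror2 and Wnt3a differed by −0.26 and 0.02. Sfrp2 minus Sfrp1 changed by 1.17, Wnt7b minus Wnt7a by 0.56, and Vangl2 minus Vangl1 by 0.84, from 2.80 ± 0.07 in the lateral to 3.64 ± 0.06 in the medial samples. No pair had overlapping groups. The exact permutation test, two-sided, gave p = 0.1 for each, which is the smallest value that 3 against 3 samples allow, and 0.1 after adjustment over the 5 pairs, so these changes could not pass a threshold of 0.05.

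**Figure D3:**
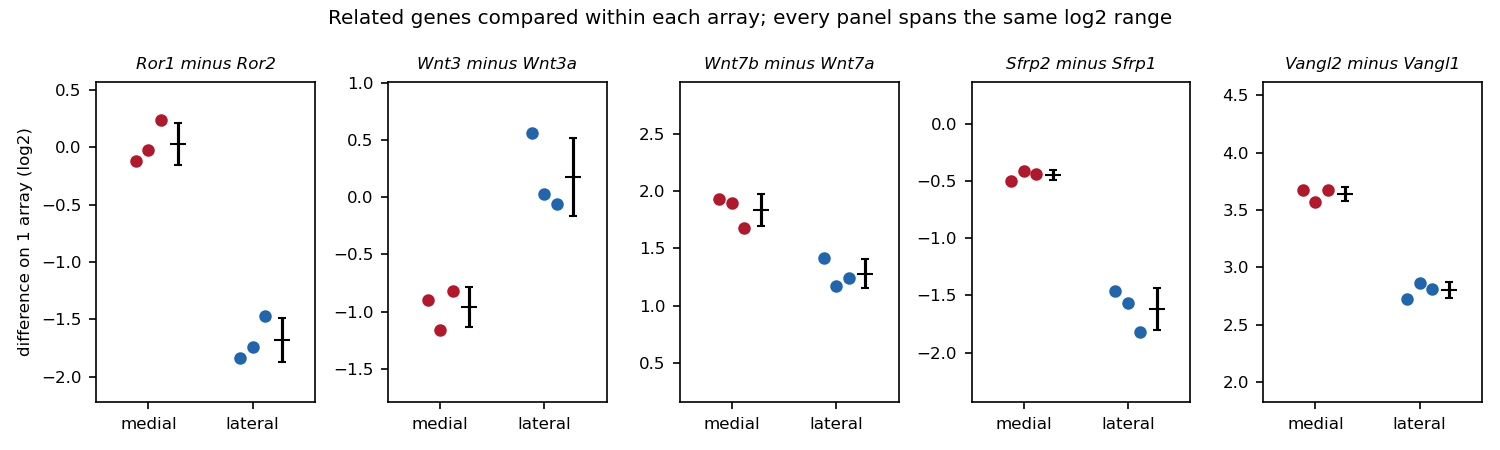
The vertical axes give the log2 difference between 2 related genes on the same array, with 1 point per array and the mean ± SD of 3 arrays beside it, for medial (red) and lateral (blue) samples. The groups lie apart in all 5 panels, and the change between the group means is largest for Ror1 minus Ror2, at 1.71.

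Further genes of the pathway that are not among the 53 were counted in 5 lists, in which 123 of 140 genes were measured. In limma 2 of them passed as higher and 8 as lower in medial neurons, or 8.13% in either direction against 3.07% of all rows, and their median log2 difference was −0.01. The number of calls fell to 2, 3 and 1 without medial replicate 1, 2 or 3, and to 3, 1 and 5 without lateral replicate 1, 2 or 3. Serpinf1 was the 1 gene of the 10 that passed in each of these 6 fits.

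Outside the cell, 1 of 24 measured genes for Wnt secretion and extracellular modulators was higher and 1 lower, or 8.33% against 3.07% of all rows. Ndp encodes norrin, a protein unrelated to Wnts that activates Fzd4, and averaged 6.79 ± 0.13 in the medial group and 6.11 ± 0.07 in the lateral group (log2, SD, n = 3), a difference of 0.68 ± 0.09 (SE, adjusted p = 0.0145). Fzd4 itself differed by 0.02, with group means of 5.46 and 5.43, near the median of the background genes. Serpinf1, a secreted serpin also called pigment epithelium-derived factor, stood at 5.72 ± 0.05 and 6.38 ± 0.05, a difference of −0.66 ± 0.07 (adjusted p = 0.00733). The group means of Serpinf1 lay under 6.77, and those of Ndp on either side of it. Wls, which carries Wnts to the cell surface, differed by 0.16 ± 0.09 and did not pass. Its group means of 5.15 and 4.99 also lay under 6.77. Dkkl1, a relative of the Dkk genes, averaged 8.41 ± 0.27 against 9.002 ± 0.35 with groups apart, and its difference of −0.59 ± 0.21 did not pass (adjusted p = 0.294). Of the 4 ligands and R-spondins outside the member list 0 passed in limma, and 0 had an unadjusted p under 0.05. Rspo4 differed by −0.25, Wnt10b by −0.28, Wnt8a by 0.07 and Wnt9b by 0.13.

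Inside the cell, 1 of 38 measured genes of the beta-catenin route was higher and 1 lower, or 5.26% against 3.07% of all rows. Tle3, a Groucho-family corepressor that binds Tcf factors, was higher in the medial samples, at 10.97 ± 0.05 against 10.42 ± 0.09 (difference 0.55 ± 0.08, adjusted p = 0.0186). Nkd2, which binds Dishevelled and dampens Wnt signals, was lower, at 7.94 ± 0.02 against 8.40 ± 0.05 (difference −0.46 ± 0.07, adjusted p = 0.0219). Its relative Nkd1, a beta-catenin target as well, had the same sign at −0.50 ± 0.11 (adjusted p = 0.0739). The median of this list was 0.03.

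Genes of the polarity and beta-catenin-independent list gave 5 calls among 36 measured genes, all lower in the medial samples, or 13.9% against 1.94% of all rows called as lower. Counted by gene, 336 of the 14860 genes were called as lower. The list was chosen with earlier results of these data known, so its share is no test of the pathway. Vangl1, the relative of Vangl2, differed by −0.59 ± 0.10 (log2, SE, adjusted p = 0.0338). The calcium/calmodulin kinase genes Camk2a, Camk2b and Camk2d, which many signals besides Wnts use, differed by −0.52, −0.50 and −0.86 (adjusted p = 0.0189, 0.0482 and 0.0129). Magi3, a membrane scaffold gene, differed by −0.87 ± 0.13 (adjusted p = 0.0221). The median of the list was −0.01, with 16 genes above 0 and 20 below. Vangl1 and Camk2b were lost whichever sample was left out, and the other 3 genes without at least 3 of the 6 samples.

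Of 25 measured beta-catenin target genes, 1 passed, and it was lower in the medial samples, or 4.0% against 1.94% of all rows called as lower. Id2, a helix-loop-helix inhibitor with many other regulators, stood at 10.17 ± 0.12 against 10.78 ± 0.10 (difference −0.62 ± 0.10, adjusted p = 0.0234), a call lost on omitting any of 5 of the 6 samples. Nrcam, an adhesion molecule gene, differed by 0.45 ± 0.09 (adjusted p = 0.0501). The median of the list was −0.05, and 76.0% of its genes lay within 0.2 of no difference. The share was 71.6% of all rows and 78% of the 14860 genes counted by gene. Several of the targets, among them Ccnd1, Sp5, Notum and Rnf43, had both group means under 6.77. A fold measured there can understate the difference.

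**Figure D4:**
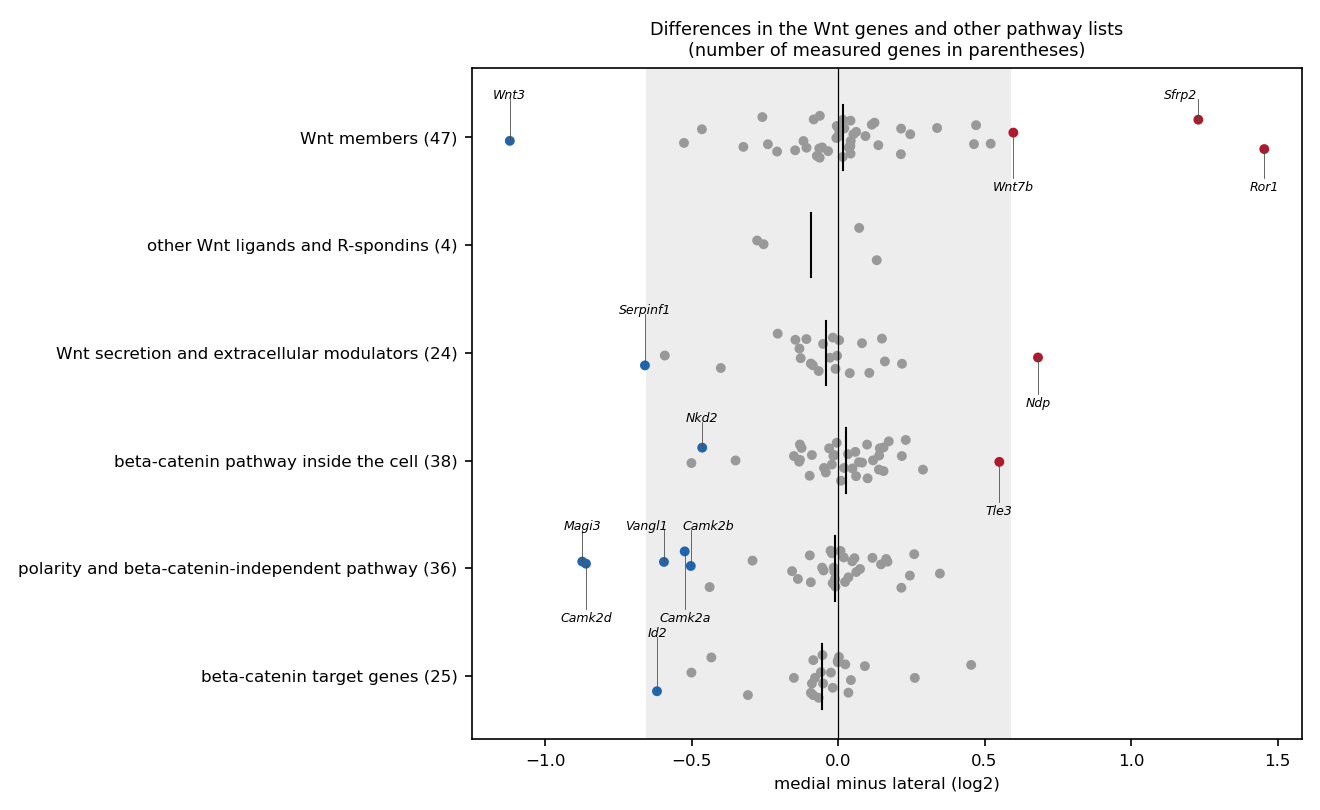
The horizontal axis gives the medial minus lateral difference (log2) of each gene in the Wnt member list and 5 further pathway lists, with a vertical bar at each median and a grey band from −0.65 to 0.59, the central 95% of all rows. Named points passed an adjusted p of 0.05, in red where higher and in blue where lower in the medial samples, and the 5 named genes of the polarity list all lie to the left.

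Genes listed as markers of the floor plate, a source of Wnts beside the motor neurons, differed between the columns in part. Of 6 measured floor plate genes, 2 were lower in the medial samples, or 33.3% against 1.94% of all rows called as lower. These were Shh and Spon1, with log2 differences of −1.03 ± 0.12 and −1.30 ± 0.10 (SE, limma adjusted p = 0.00892 and 0.00178). The defining gene Foxa2 differed by 0.03, with means of 6.97 and 6.94, which lie within the range of the background genes. The summed level of the list ran from 10.2 to 10.3 in the medial and from 11.17 to 11.23 in the lateral samples, and Spon1 and Shh made up 65.8% to 84.1% of it. The other 4 genes of the list lay between −0.15 and 0.13. Markers of roof plate and dorsal cord, interneurons, sensory neurons, neural crest and Schwann cells, vessels and blood, and myeloid cells gave 0 calls in limma. None of those genes had an unadjusted p under 0.05, beside 3130 of all 23332 rows. In all of them but Evx1 both group means lay under 7.71, so 0 calls say little about these cells. The groups were apart in 2 of 5 vessel and blood genes (40.0%) and in 1 of 7 roof plate and dorsal cord genes (14.3%), against 19.3% of all rows. They overlapped in all genes of the other lists, where 3 of 7 sensory neuron genes and 3 of 6 neural crest and Schwann cell genes were measured. Which cells the Shh and Spon1 transcripts came from was not tested, nor was the part of the listed cell types in the Wnt differences. In such samples fewer cells of a type and less RNA per cell cannot be told apart.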

How the data were processed

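Per the labels' protocols, total RNA from the sorted neurons was fragmented and biotinylated with an Affymetrix WT kit, and each of the 6 samples has 1 array. The authors deposited 1 processed value per row and array, taken here as log2 from its range. Summarization, background correction, normalization and centring between arrays were not stated in what was available (not given in the sources used here). Per the submitters' processing notes, mm9 was used.

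Groups and replicate numbers came from the titles. limma 3.58.1 in R 4.3.3 (lmFit, eBayes) compared medial with lateral samples without a block, two-sided. P-values were adjusted by Benjamini and Hochberg's method across all 23332 rows, and 0.05 was the threshold. The series design names the program PowerExpress, which was not run. Gene names came from the probe table of the platform, in which 14996 rows had 1 symbol, 1019 several and 7317 were not listed. Of the first, 14941 took current symbols from RefSeq, used only for names, neighbours and promoter windows. Pairs of arrays shared at most 7 identical values. Members and lists were chosen with earlier results of these data known. Values on every array are given for each member past the threshold and for the 10 next by p. Other members are given by their difference or range, and pathway genes where they passed or were among the 3 smallest p of their list. Nes, Hes5, Pax6, Fabp7, Col1a1, Col3a1, Twist1, Sox9, Lum, Prrx1, Foxa2, Wls and Wnt9b were added with their values known. The fit was tested on simulated data. Alternatives were the replicate block, normalization, centring, filters, row choice, variance moderation, array weights, thresholds and leaving out each sample.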

Additional observations from a re-analysis of the deposited data

How the results depend on the processing

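The number of arrays and the lack of detection calls limit what low rows can show. The count of 717 rows called in the whole table lay between 326 and 538 in the fits with a sample left out. Members called as higher, 3 of 47, numbered 1 (Ror1) in the fit with the replicate block, and the other pathway genes numbered 3 in place of 10. In that fit Sfrp2 had an adjusted p of 0.0578 and Wnt7b one of 0.0752. The sample descriptions give each medial sample a number that the lateral sample of the same replicate shares, without saying whether it marks a litter or a day, so pairing is possible. The deviations of same-numbered samples correlated at 0.351, 0.0669 and 0.0151, and medial replicate 2 correlated best with lateral replicate 3 (0.299). Deviations within a group of 3 are tied to each other, so these values cannot decide whether the samples were paired. The block was not used for the reported values because the meaning of the number is not given. Members called as lower, 1 in number, became 0 without rows of low mean, which drops Wnt3 itself and keeps 23 members, 2 with only 1 row per gene, and 2 at an adjusted p of 0.1. Rspo2 was the added gene with 1 row per gene (adjusted p = 0.0379). The other pathway genes called numbered 6 with a fold of at least 1.5 as well, and from 1 to 5 with a sample left out. No member reversed a call. Of 587 single results for members, 575 kept their side of the threshold, 6 lost a call and 6 gained one. The sign changed in 54 results from 24 members, none of which passed in either fit and whose reported differences were at most 0.115 in size. In Fzd5 (0.14 without lateral replicate 3) and Sfrp1 (−0.06 without medial replicate 3) that change was larger than the SE. The causes were not tested. No member had a second row, so the choice of row changed nothing.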
